A study of Homo sapiens with 23 samples.

Results

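The 4 Argonaute knockout lines made from HCT116, a human colorectal cancer cell line, were compared together with wild-type HCT116 cells to find the autosomal genes whose RNA level moved the same way in every knockout line, whichever *AGO* gene was missing. The comparison was the mean of the 4 line means against the wild-type mean. Its 15 RNA sequencing samples, out of 23 samples in the series, were 3 each of wild-type cells and of the *AGO1* (AGO1-/-), *AGO2* (AGO2-/-), *AGO1/2* (AGO1-/-, AGO2-/-) and *AGO1/2/3* (AGO1-/-, AGO2-/-, AGO3-/-) knockout cells, called the A1, A2, A12 and A123 lines as in the sample labels. A service company edited every line from the same verified HCT116 stock, each genotype is represented by 1 line, and the cells grew in McCoy's 5A medium with serum, with no drug or other treatment named. The design has no line that went through editing with its *AGO* genes intact. Loss of an *AGO* gene and the editing and separate culture that the 4 lines share therefore cannot be told apart in any result given here. Of 22842 genes tested, 21870 were autosomal, and chromosomes X and Y and the mitochondrial genome were left out of every count. Of the autosomal genes, 320 passed the test with one direction in all 4 lines.

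Argonaute proteins carry microRNAs, short RNAs whose bases 2 to 8, the seed, pair with sites in messenger RNAs and lower their stability or translation. Human cells have AGO1 to AGO4, of which AGO2 can also cut its target. Each knockout line kept some of these genes, *AGO4* in all 4 and *AGO3* in 3. A gene that moved in every line thus did so in cells that had lost different Argonautes. By the paper's account, however, earlier mass spectrometry did not detect AGO4 protein in wild-type HCT116 cells. *AGO1* was intact in A2 cells and *AGO2* in A1 cells, and no single *AGO* gene was missing from all 4 lines.

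The total of the estimated counts was between 27709971 and 45271146 per sample, with a median of 30701840. The 3 A2 samples (40419152 to 45271146) and replicate 1 of the A123 line (40567975) were the deepest. The 3 A2 files carry the mark of another run mode of the quantification tool than the other 12, and that mode and the *AGO2* genotype cannot be told apart. Levels are given as CPM, the share of a library's counts scaled to a common total, after TMM scaling unless stated. The epithelial markers *EPCAM*, *KRT8*, *KRT18*, *KRT19*, *CDH1* and *CDH17* together reached, without TMM scaling, 1860 to 1960 CPM in wild-type samples and 1350 to 2680 CPM in knockout samples, with *CDH17* below 1 CPM in every sample. The summed markers of fibroblasts were at most 33.3 CPM, of leukocytes at most 15.3 CPM and of endothelial cells at most 3.9 CPM in any sample.

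*AGO1* (chromosome 1, 35869808 to 35930532 of hg38) was at 138, 108 and 146 CPM in the wild-type samples. It was at 32.2 to 39.5 CPM in A1, 35.5 to 37.8 CPM in A12 and 28.7 to 35.5 CPM in A123 samples, and at 158 to 161 CPM in A2 samples. The gene was thus low in the lines whose label says it was knocked out. *AGO3* was at 100 to 130 CPM in wild-type and at 46.1 to 57.4 CPM in A123 samples. *AGO2* RNA was at 379 to 459 CPM in wild-type, 262 to 314 CPM in A2, 321 to 365 CPM in A12 and 518 to 557 CPM in A123 samples, so its RNA level was no check of its label. A small deletion or insertion can remove the protein and leave the RNA.

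In the mean of the 4 lines, the quasi-likelihood test of edgeR, with p-values adjusted by Benjamini-Hochberg, called 1981 autosomal genes higher (9.06% of those tested) and 2648 lower (12.1%) at an adjusted p of at most 0.05. Far fewer passed in every line, namely 48 higher (0.219%) and 272 lower (1.24%). Each single line had more. The A1 line had 684 higher (3.13%) and 1201 lower genes (5.49%), the A2 line 1876 (8.58%) and 2336 (10.7%), the A12 line 1827 (8.35%) and 1829 (8.36%), and the A123 line 4442 (20.3%) and 4334 (19.8%). Most calls belonged to few lines, since 3403 genes were called higher in 1 line and lower in none, 1477 in 2 and 380 in 3. For lower genes these counts were 3086, 1395 and 520. The 4 contrasts share the 3 wild-type samples, so a chance deviation of those samples would enter all of them.

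The A1 line had the fewest calls, and without it 272 genes were higher and 631 lower in the other 3. Of the 48 higher genes, 47 had all 12 knockout values above all 3 wild-type values, as did 213 of all tested genes (0.974%). Of the 272 lower genes, 256 had all 12 values below, against 572 of all tested genes (2.62%), and both directions together made up 785 genes (3.59%). These shares are a description, because the same values chose the genes. The median change of the mean contrast was 1.17 on the log2 scale for the higher genes and -1.13 for the lower genes, and the latter stayed at -1.13 with 2 genes that had no counts in a line set to their bound.

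The replicates of 1 line are not independent lines, and an error that counts them as such speaks for these cultures only. With the 12 knockout samples treated as one group, so that the differences between lines entered the error, 48 genes were higher and 398 lower. With the counts of each line summed to 1 library, 4 lines stood against 1, and no call was left. The wild-type group then held 1 library with no spread of its own, so this comparison cannot decide which changes hold between lines.

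**Figure D1:**
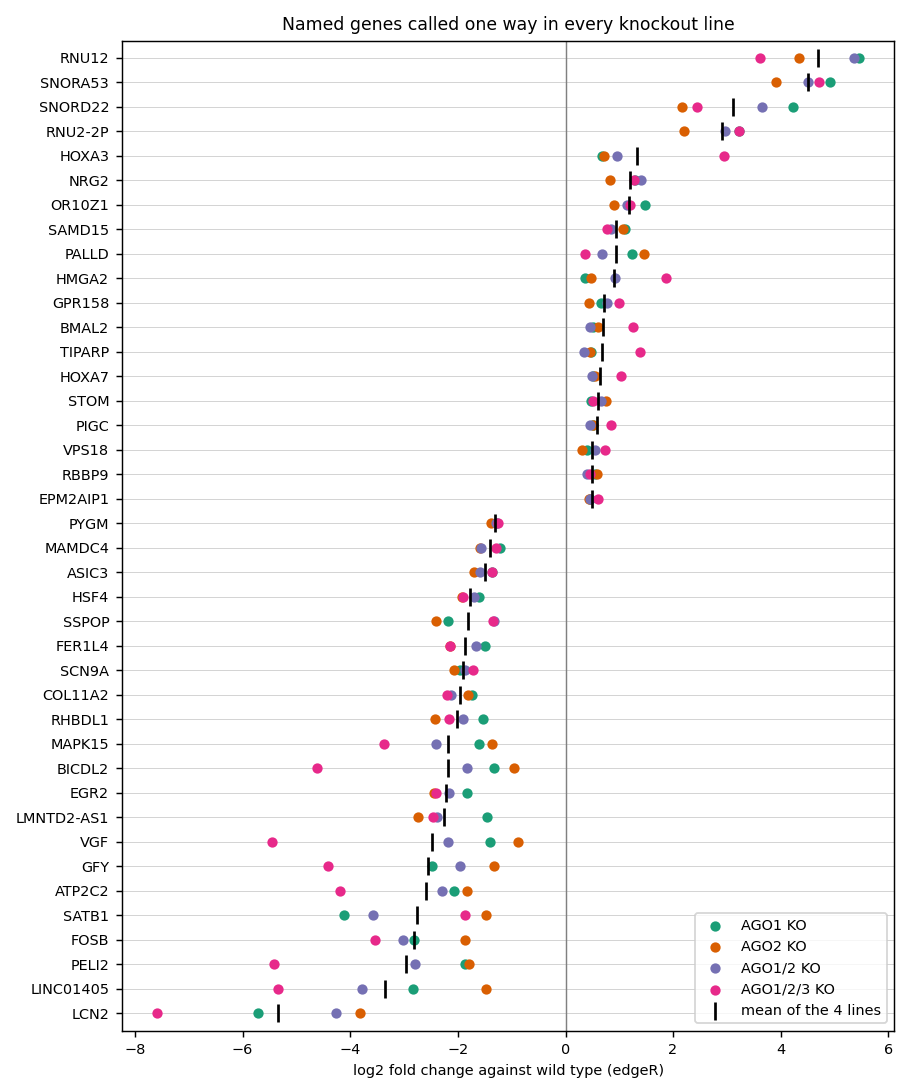
Log2 fold change against wild type (horizontal axis) of 40 named genes that passed the test with one direction in every knockout line, with 1 point per line and a bar for the mean of the 4 lines. Points lie on one side of 0 for every gene, and A123 cells (pink) lie farthest out for HOXA3, HMGA2 and VGF, whereas the 4 points of PYGM nearly coincide. The point of LCN2 in A123 cells rests on 3 counts in all.

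Of the 48 genes higher in every line, 21 were protein-coding. *HMGA2* (chromosome 12, 65824460 to 65966291, plus strand), which encodes a chromatin protein of embryonic and cancer cells and is the best known let-7 target, was the most abundant of them. It was at 412, 488 and 425 CPM in wild-type samples. The level was 565, 565 and 572 CPM in A1, 623, 658 and 562 CPM in A2, 763, 894 and 858 CPM in A12 and 1490, 1640 and 1720 CPM in A123 samples. All 12 knockout samples were above the 3 wild-type samples, and the A123 samples stood well above the others. The mean of the 4 lines was 0.91 higher on the log2 scale (SE, the standard error, 0.08, adjusted p = 4.59e-06), a 1.88-fold difference. The log2 fold changes of the lines were 0.36, 0.48, 0.92 and 1.87 in the same order, and they differed among the lines (adjusted p = 2.58e-08).

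The seed of let-7 and its sites in the 3′ untranslated region (3′UTR) of *HMGA2* are shown because *HMGA2* was the one member of a list of let-7 targets that was higher in every line. The first pair are mature microRNAs from RefSeq, with the seed, which both share, in capitals. The 4 sites, read from the hg38 sequence of the canonical GENCODE transcript, have the bases that match the seed, CTACCTC, in capitals.
hsa-let-7a-5p: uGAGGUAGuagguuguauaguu
hsa-let-7f-5p: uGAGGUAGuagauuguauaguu
HMGA2 site 1: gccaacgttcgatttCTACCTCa
HMGA2 site 2: ccccactactcaataCTACCTCt
HMGA2 site 3: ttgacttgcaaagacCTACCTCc
HMGA2 site 4: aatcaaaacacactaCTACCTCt
The first begins at position 21 of the 2999-base 3′UTR (chr12:65963298-65963320, plus strand) and the others at positions 1256, 1668 and 2521 (chr12:65964533-65964555, chr12:65964945-65964967 and chr12:65965798-65965820). The letters CTACCTC were found on the transcript strand in the 3′UTRs of 2 of the 21 protein-coding genes that were higher in every line (9.52%), of 20 of 189 that were lower (10.6%) and of 1598 of all 14264 with a 3′UTR (11.2%). A match of letters is a description and not proof of a site in use.

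The shares for other seeds are given as a description, with no test of their difference. They were not adjusted for the length of the 3′UTR, in which a longer sequence holds more places for a match. Its median was 2220 bases in the higher, 656 in the lower and 1310 in all tested protein-coding genes. The match of miR-21-5p, ATAAGCT, was in 3 of the 21 higher genes (14.3%) against 9.63% of all, that of miR-27a-3p, ACTGTGA, in 3 (14.3%) against 17.6%, that of miR-29a-3p, TGGTGCT, in 6 (28.6%) against 16.1%, and that of miR-125b-5p, CTCAGGG, in 1 (4.76%) against 16.6%. In the lower genes the shares were 5.82% for miR-21-5p, 10.6% for miR-27a-3p, 12.2% for miR-29a-3p and 18.5% for miR-125b-5p. Over all protein-coding genes the median log2 fold change of the mean contrast was 0.05 for genes with a let-7 match and 0.02 for those without. In the A1 line these medians were -0.04 and -0.03, and in the A123 line 0.13 and 0.03.

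Of the clustered HOX genes, homeobox transcription factors that set position along the body axis, 31 were tested, of which 16 were higher (51.6%, against 9.06% of all autosomal genes) and 1 lower (3.23%, against 12.1%) in the mean of the lines. The lines were unlike in this, with median log2 fold changes of 0.19, 0.12, 0.42 and 1.27 in the A1, A2, A12 and A123 lines. In the same order, 5, 7, 11 and 22 of the genes were called higher and 2, 1, 1 and 1 lower. *HOXA3* and *HOXA7* were higher in every line. *HOXA3* (chromosome 7, 27106184 to 27152583, minus strand) was at 3.07, 2.77 and 3.41 CPM in wild-type samples, 4.17 to 5.66 CPM in A1, 4.95 to 5.15 CPM in A2 and 5.05 to 6.63 CPM in A12 samples, and at 26.6, 25.2 and 19.6 CPM in A123 samples. The groups did not overlap, and the 3 A123 samples carried most of the mean log2 fold change of 1.32 (SE 0.13, adjusted p = 8.5e-06). *HOXA7* (27153716 to 27157936 on the same strand) was at 12.6, 10.3 and 12.2 CPM in wild-type and between 14.9 and 24.3 CPM in knockout samples, with log2 fold changes of 0.51, 0.54, 0.49 and 1.04 in the A1, A2, A12 and A123 lines, and it lost the call with the 12 knockout samples as one group (adjusted p = 0.0579). *HOXA9*, at 42.8 to 47.0 CPM in wild-type and 49.0 to 213 CPM in knockout samples, was 0.93 higher on the log2 scale in the mean (adjusted p = 2.67e-06) and 0.19 higher, short of the threshold, in A1 cells.

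*TIPARP*, a mono-ADP-ribosyltransferase induced through the aryl hydrocarbon receptor, was at 54.1 to 65.1 CPM in wild-type, 72.5 to 94.2 CPM in the first 3 knockout lines and 150 to 160 CPM in A123 samples (log2 fold change of the mean 0.67, adjusted p = 0.000128). *BMAL2*, a partner of the CLOCK protein, was at 27.6 to 42.9 CPM in wild-type and 43.4 to 87.3 CPM in knockout samples, with a log2 fold change of 0.70 (adjusted p = 0.00079). For both genes, as for *HMGA2* and *HOXA3*, the change was largest in A123 cells, which held for 14 of the 21 protein-coding genes. With the 12 knockout samples as one group the adjusted p was 0.218 for *TIPARP*, 0.13 for *BMAL2*, 0.215 for *HMGA2* and 0.247 for *HOXA3*.

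*PALLD* (chromosome 4, 168497052 to 168928457), which encodes the actin-bundling protein palladin, had another order of lines. It was at 206, 147 and 226 CPM in wild-type, 418 to 523 CPM in A1, 504 to 551 CPM in A2, 295 to 322 CPM in A12 and 240 to 256 CPM in A123 samples. The log2 fold changes, 1.23, 1.46, 0.67 and 0.37 in that order, were larger in the lines that lack 1 *AGO* gene than in those that lack several, and they differed among the lines (adjusted p = 2.67e-05). With the 12 knockout samples as one group the call was lost (adjusted p = 0.0923). *NRG2*, a neuregulin ligand of the ErbB receptors, was at 0.446 to 1.15 CPM in wild-type and 1.32 to 2.54 CPM in knockout samples, a mean log2 fold change of 1.20 (adjusted p = 0.00128). *GPR158*, a receptor studied mostly in neurons, rose by 0.72 (adjusted p = 0.000274). The olfactory receptor gene *OR10Z1* was 1.18 higher on the log2 scale, at 0.482 to 0.606 CPM in wild-type and 0.912 to 1.9 CPM in knockout samples.

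**Figure D2:**
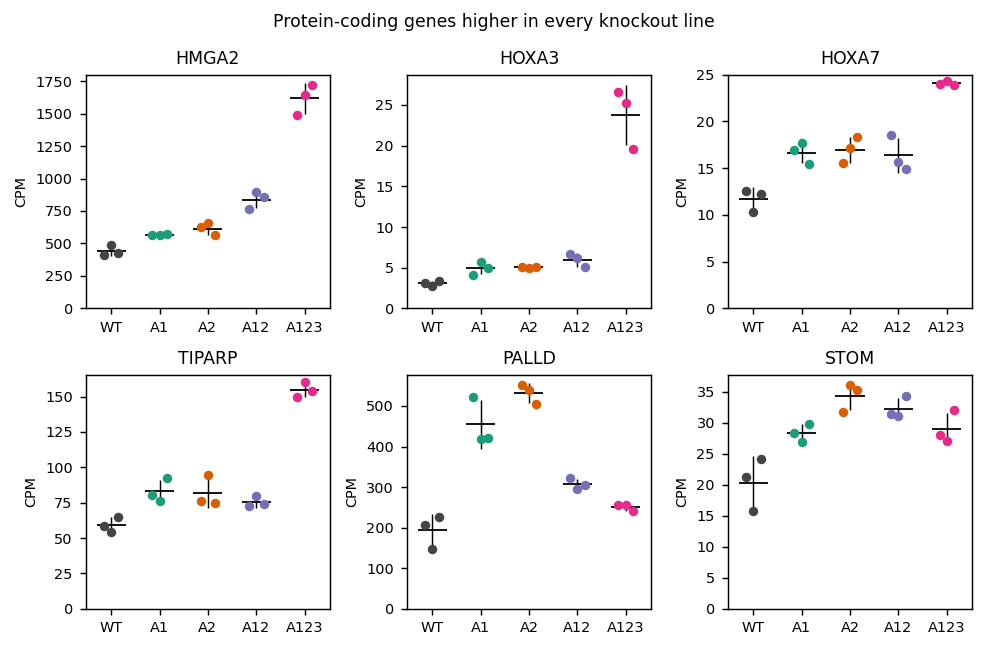
CPM (vertical axis) of 6 protein-coding genes that were higher in every knockout line, in each of the 15 samples by group, with the mean and SD of 3 samples. HMGA2, HOXA3, HOXA7 and TIPARP were highest in A123 samples, PALLD in A2 samples, and STOM lay between 26.9 and 36.1 CPM in all 12 knockout samples against 15.8 to 24.1 CPM in wild-type samples.

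A small group of higher genes moved by similar amounts in all lines, with 4 log2 fold changes within 0.5 of each other. *STOM*, which encodes the membrane protein stomatin, was 0.47, 0.75, 0.66 and 0.51 higher in the A1, A2, A12 and A123 lines. The mean was 0.60 (SE 0.11, adjusted p = 0.0011). *RBBP9*, a serine hydrolase, was at 11.9 to 16.4 CPM in wild-type and 17.7 to 22.2 CPM in knockout samples, with a mean log2 fold change of 0.50. *EPM2AIP1*, named for its binding to laforin, was at 25.4 to 32.4 CPM and 33.4 to 46.0 CPM, a mean of 0.49. *SAMD15* was at 0.765 to 1.3 CPM and 1.47 to 2.74 CPM, a mean of 0.94. The test among lines gave adjusted p-values from 0.203 to 0.562 for these 4 genes, which does not show that the lines were alike. *PIGC*, of the first step of GPI anchor synthesis (mean 0.58), and *VPS18*, of the tethering complexes of late endosomes (mean 0.50), were also within 0.5, but differed among the lines (adjusted p = 0.0441 and 0.00998). *VPS18* lost the call with the 12 knockout samples as one group (adjusted p = 0.0563).

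The remainder of the higher set was mostly short structural RNA. Small nuclear RNAs (snRNAs) build the spliceosome, small nucleolar RNAs (snoRNAs) guide the modification and cutting of ribosomal RNA, and scaRNAs guide the modification of snRNAs. The set held 11 snoRNA genes, 9 snRNA genes, 2 scaRNA genes and the signal recognition particle RNA *RN7SL1*, out of 189, 105 and 13 tested genes of the first 3 types. No gene of these types was lower in every line. The types were looked at after their values were seen. Whether the recovery of such short RNAs differed between the preparations was not tested. The median log2 fold change of the mean contrast was 0.23 over all 189 snoRNA genes and 0.04 over all 105 snRNA genes. In the mean contrast, 38 snoRNA genes were higher (20.1%) and 9 lower (4.76%), and 22 snRNA genes were higher (21%) and 8 lower (7.62%), against 9.06% and 12.1% of all autosomal genes. The lines were unlike in this: 71 snoRNA genes were higher and 1 lower in A1 cells, 29 and 23 in A2, 42 and 8 in A12, and 31 and 30 in A123 cells.

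*RNU12* (chromosome 22, 42615244 to 42615393, plus strand), the U12 snRNA that recognises the branch point of the rare minor introns, differed most. It was at 0.815, 1.85 and 1.42 CPM in wild-type samples, against 43.3, 62.3 and 73.8 CPM in A1, 33.2, 22.8 and 26.5 CPM in A2, 60.0, 56.7 and 51.3 CPM in A12 and 22.1, 13.8 and 13.9 CPM in A123 samples. The lowest knockout sample was far above the highest wild-type sample. The mean log2 fold change was 4.69 (SE 0.27, adjusted p = 5.29e-08), 25.8-fold, and the gene differed among the lines (adjusted p = 2.91e-05). *RNU6ATAC*, another snRNA of the minor spliceosome, was at 0.669 to 1.69 CPM in wild-type and 3.62 to 13.7 CPM in knockout samples (log2 fold change of the mean 2.85, adjusted p = 1.1e-06). Both other snRNAs of that spliceosome fell short of a call in every line. *RNU4ATAC* was 0.79 higher in the mean (adjusted p = 0.0125), and *RNU11* stood at 0.21 on that scale (adjusted p = 0.478).

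*RNU2-2P*, a U2 snRNA gene of the major spliceosome (chromosome 11, 62841619 to 62841809), was at 26.8, 39.5 and 50.0 CPM in wild-type and between 157 and 452 CPM in knockout samples. The mean log2 fold change was 2.90 (SE 0.21, adjusted p = 4.38e-07). *RNU2-1* was at 137 to 203 CPM and 383 to 764 CPM, a log2 fold change of 1.65. Of 8 tested *RNU5* genes, 4 were higher in every line, and of 28 *RNU1* genes, 0 were, with 4 higher and 2 lower in the mean contrast. These genes have many near-identical copies in the genome, between which the estimated counts can be divided in more than one way, so that the level of any 1 copy is uncertain.

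*SNORA53* (chromosome 12, 98599635 to 98599883) was at 0.470, 0.478 and 0.814 CPM in wild-type and between 8.54 and 20.6 CPM in knockout samples. That is a mean log2 fold change of 4.51 (SE 0.22, adjusted p = 7.63e-09), with 3.91 to 4.92 in the lines. *SNORD22* was at 0, 0.223 and 0.301 CPM in wild-type and 0.659 to 5.00 CPM in knockout samples. Its log2 fold change of 3.12 became 3.76 without wild-type replicate 3. *SNORD3A*, the U3 snoRNA that is needed to cut the precursor of ribosomal RNA, was at 1610, 2040 and 2040 CPM in wild-type and 5210 to 19000 CPM in knockout samples, with log2 fold changes of 2.91, 2.49, 2.39 and 1.54 in the A1, A2, A12 and A123 lines.

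Summed over all snoRNA genes and without TMM scaling, the level was 2750 to 3620 CPM in wild-type and 6110 to 21300 CPM in knockout samples, without overlap. *SNORD3A* carried that difference. Without it the sum was 1010 to 1430 CPM in wild-type and 902 to 2610 CPM in knockout samples, which overlap. *RN7SL1* was at 11400 to 13800 CPM in wild-type and 18000 to 26800 CPM in knockout samples on the same scale, again without overlap, whereas *RN7SK* (12100 to 15700 and 13300 to 19600 CPM) and the RNase MRP RNA *RMRP* (5300 to 6900 and 2600 to 9450 CPM) overlapped. Left out before normalization, an alternative added after seeing the data, the small RNA genes took the higher set from 48 to 26 and the lower set from 272 to 266.

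**Figure D3:**
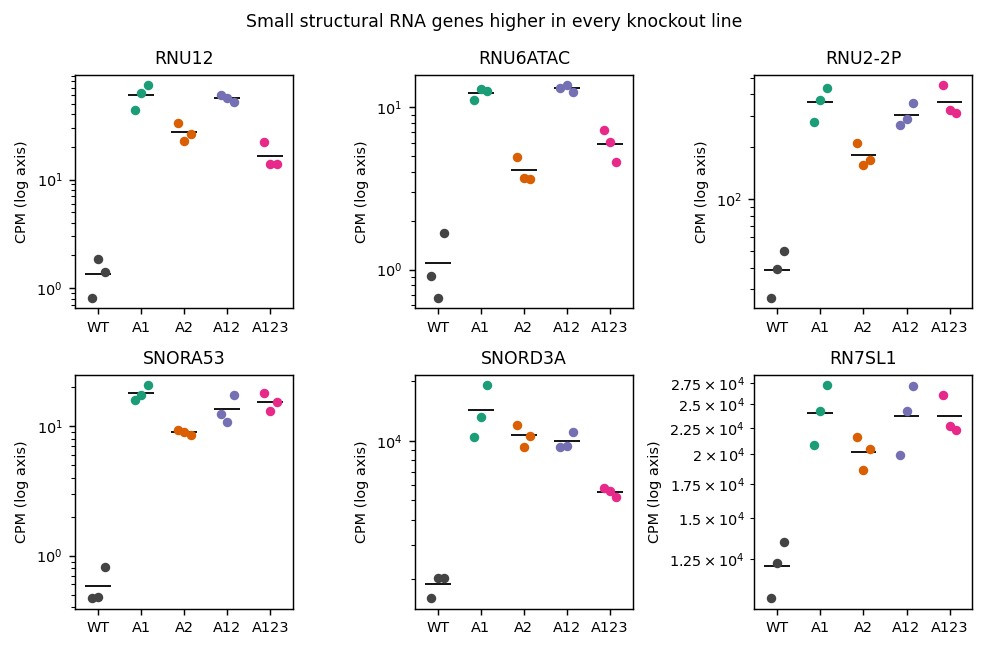
CPM (vertical axis, logarithmic) of 6 small structural RNA genes in each of the 15 samples by group, with the mean of 3 samples as a bar. In every panel the 3 wild-type samples lie below all 12 knockout samples, as for RNU12 (at most 1.85 CPM against at least 13.8 CPM) and SNORA53 (at most 0.814 CPM against at least 8.54 CPM).

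Of the 272 genes lower in every line, 190 were protein-coding, 46 were lncRNA genes, 26 were pseudogenes and 10 were of other types. Immediate early genes, which are switched on within minutes by growth factors and stress, were the list with the largest share of lower genes in the mean contrast. Of 17 tested, 15 were lower and 0 higher in the mean of the lines (88.2%, against 12.1% of all autosomal genes), with a median log2 fold change of -1.32. In all 4 lines 5 passed, namely *FOSB*, *EGR2*, *ZFP36*, *IER2* and *IER3*. The list was written with earlier results of these data known. *BTG2* and *FOSL1* were not called (log2 fold changes of 0.03 and 0.07), and *KLF6*, 0.38 lower in the mean, had a log2 fold change of 0.63 in A123 cells.

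*FOSB* (chromosome 19, 45467995 to 45475179), a subunit of the AP-1 transcription factor, was at 241, 196 and 186 CPM in wild-type samples. It was at 33.8, 24.4 and 29.8 CPM in A1, 70.1, 42.8 and 58.5 CPM in A2, 42.5, 14.8 and 19.5 CPM in A12 and 43.1, 4.87 and 5.05 CPM in A123 samples. Replicates of 1 line differed by up to several-fold, yet all 12 lay below the wild-type samples. The mean log2 fold change was -2.81 (SE 0.41, adjusted p = 0.000234). *EGR2*, a zinc finger factor, was at 7.18 to 13.2 CPM in wild-type and 0.780 to 3.97 CPM in knockout samples, a change of -2.22 (adjusted p = 0.000395).

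*ZFP36*, which binds AU-rich elements and starts the decay of messenger RNAs, was at 92.3, 128 and 89.2 CPM in wild-type and 18.9 to 55 CPM in knockout samples. Its log2 fold change of the mean was -1.49 (SE 0.14, adjusted p = 5.69e-06). *IER3* was at 326 to 514 CPM and 134 to 279 CPM (-0.98), and *IER2* at 141 to 165 CPM and 64.0 to 112 CPM (-0.78). *FOS* and *NR4A1* had no overlap between knockout and wild-type samples either, but missed the threshold in 1 line each, *FOS* in A2 cells (adjusted p = 0.195) and *NR4A1* in A1 cells (0.0518). *DUSP5*, a phosphatase of ERK, was lower in every line (-1.32 in the mean), with an overlap of the samples (167 to 443 CPM in wild-type and 71.8 to 177 CPM in knockout). Of 16 tested feedback regulators of ERK, 1 was lower in every line, and 2 were higher (12.5%, against 9.06% of all) and 2 lower (12.5%, against 12.1%) in the mean. *PLK3*, a stress kinase of the p53 list, was lower in every line, by 1.14 in the mean. Of 27 tested p53 targets, 1 was lower in every line, and 4 were higher (14.8%, against 9.06%) and 4 lower (14.8%, against 12.1%) in the mean.

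The long noncoding RNA *NEAT1* (chromosome 11), the scaffold of nuclear paraspeckles, was chosen after its values were seen. It was at 1130, 1530 and 1070 CPM in wild-type and between 252 and 641 CPM in knockout samples. Its log2 fold changes were -1.63, -1.49, -1.48 and -2.08 in the A1, A2, A12 and A123 lines, and -1.67 in the mean (SE 0.21, adjusted p = 8.33e-05). Its neighbour *MALAT1* overlapped between the groups, at 9890 to 27400 CPM in wild-type and 8940 to 18200 CPM in knockout samples without TMM scaling. The host transcript of miR-23a and miR-27a, *MIR23AHG*, also chosen after its values were seen, was at 5.04 to 12.2 CPM in wild-type and 2.34 to 5.48 CPM in knockout samples, a log2 fold change of -1.11 (adjusted p = 0.00047).

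*SATB1* (chromosome 3, 18345377 to 18445621), an organiser of chromatin loops, was at 7.27, 9.69 and 8.98 CPM in wild-type samples. It was at 0.311, 0.475 and 0.700 CPM in A1, 4.32, 2.01 and 2.96 CPM in A2, 0.801, 0.690 and 0.663 CPM in A12 and 2.99, 1.96 and 2.10 CPM in A123 samples. The mean log2 fold change was -2.76 (SE 0.18, adjusted p = 1.7e-07), and the changes were largest in the A1 (-4.12) and A12 (-3.58) lines. *PELI2*, an E3 ubiquitin ligase of Toll-like receptor signalling, was at 5.64 to 7.42 CPM in wild-type and 0.105 to 2.87 CPM in knockout samples, a change of -2.97.

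*LCN2*, which encodes the iron-scavenging protein lipocalin-2, was at 1.44, 17.8 and 0.814 CPM in wild-type and 0 to 0.649 CPM in knockout samples. Wild-type replicate 2 stood far above the other wild-type samples, and the mean log2 fold change of -5.35 became -2.80 without it, with an adjusted p of 9.44e-05. In A123 cells 3 counts in all stood against 633 in wild-type cells, a ratio of 0.00427 (95% interval 0.000877 to 0.0125, exact, for counting error only). The same wild-type replicate was the highest for *ATP2C2*, a calcium pump of the Golgi, at 14.6, 39.2 and 8.86 CPM in wild-type against 1.02 to 7.46 CPM in knockout samples. The change of -2.60 became -1.79 without it.

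*VGF*, a precursor of neuropeptides, was at 24.1, 59.2 and 23.4 CPM in wild-type, 6.28 to 20.6 CPM in the first 3 knockout lines and 0.678 to 1.02 CPM in A123 samples. The log2 fold changes of -1.40, -0.89, -2.18 and -5.46 differed among the lines (adjusted p = 1.2e-06). *BICDL2*, an adaptor of the dynein motor, went from 10.6 to 18.6 CPM in wild-type to 0.420 to 8.75 CPM in knockout samples in a like order of lines, with -0.95 in A2 and -4.61 in A123 cells. These 2 genes lost the call with the 12 knockout samples as one group (adjusted p = 0.258 and 0.193). The atypical MAP kinase gene *MAPK15* was at 14.2 to 16.4 CPM and 0.981 to 7.28 CPM, a mean log2 fold change of -2.18. It lies at 143716340 on chromosome 8, in a stretch of 10 Mb whose 93 genes averaging 1 CPM or more had a median of -0.68 in A12 and -0.78 in A123 cells, against -0.11 and -0.16 in the A1 and A2 lines.

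**Figure D4:**
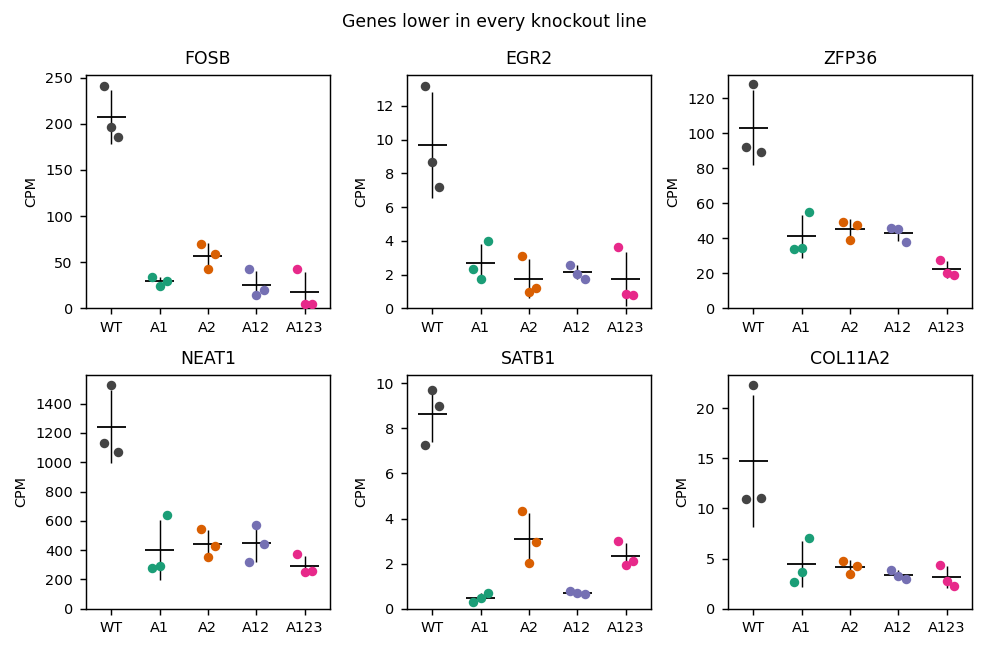
CPM (vertical axis) of 6 genes that were lower in every knockout line, in each of the 15 samples by group, with the mean and SD of 3 samples. FOSB was at 186 to 241 CPM in wild-type and at most 70.1 CPM in knockout samples, and SATB1 was lowest in A1 and A12 samples.

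The test among lines passed for 89 of the 272 (32.7%), for 35 of the 48 higher genes (72.9%) and for 11271 of all tested autosomal genes (51.5%). The 4 log2 fold changes lay within 0.5 of each other for 124 of the 272 lower genes (45.6%), 11 of the 48 higher genes (22.9%) and 7188 of all tested genes (32.9%). The median span was 0.56 for the lower genes and also 0.56 for the 21 higher protein-coding genes, against 1.03 for the 23 higher small RNA genes. *SCN9A*, the sodium channel of pain-sensing neurons, was at 3.04, 5.51 and 2.17 CPM in wild-type samples and between 0.836 and 1.22 CPM in all 12 knockout samples, with log2 fold changes from -2.07 to -1.72. *PYGM*, the glycogen phosphorylase of muscle, was at 2.22 to 3.98 CPM and 0.747 to 1.57 CPM, with changes from -1.39 to -1.26. *HSF4*, a heat shock factor of the lens, changed by -1.61 to -1.92, at 5.76 to 10.7 CPM in wild-type and 1.32 to 3.0 CPM in knockout samples.

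*COL11A2*, a chain of type XI collagen, was at 10.9, 22.3 and 11 CPM in wild-type and 2.27 to 7.07 CPM in knockout samples, a mean log2 fold change of -1.97 (adjusted p = 4.99e-05). *ASIC3*, an acid-sensing ion channel, and *MAMDC4*, a protein of apical endosomes, had mean changes of -1.50 and -1.41. The test among lines gave adjusted p-values of 0.492 to 0.967 for these 6 even genes. For each of the 6, wild-type replicate 2 was the highest of the 3 wild-type samples, as it was for *LCN2* and *ATP2C2*. All 4 contrasts share that sample, and without it 169 in place of 272 genes were lower in every line. How far it shaped the even changes was not tested. Levels were low, with a median of 8.53 CPM over the 15 samples for the 190 lower protein-coding genes, against 20.3 CPM for all tested protein-coding genes.

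Some families of near-identical copies had lower members, given here as a description beside the 12.1% of all autosomal genes that were lower in the mean and the 1.24% in every line. Of 8 tested genes of the *PKD1* family, the polycystin-1 gene and its pseudogenes on chromosome 16, 8 were lower in the mean and 7 in every line. Of 18 *NPIP* genes, a primate family in duplicated blocks of the same chromosome, 17 were lower in the mean and 5 in every line, of 5 *TBC1D3* genes 5 and 2, and of 16 *GOLGA6* and *GOLGA8* genes 8 and 2. *PKD1* itself was at 74.3 to 120 CPM in wild-type and 38.9 to 64.2 CPM in knockout samples, a log2 fold change of -0.92 (adjusted p = 0.000208). The families were picked after their values were seen, and because reads of one copy can be assigned to another, their members are not separate observations. Noncoding genes with a large change included *LINC01405* (4.64 to 5.70 CPM in wild-type, 0.102 to 2.43 CPM in knockout samples, log2 fold change -3.36), *LMNTD2-AS1* (-2.26), and the pseudogenes *FER1L4* (12.7 to 16.7 CPM and 1.99 to 6.77 CPM, -1.86) and *SSPOP* (-1.82).

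The lower protein-coding genes shared features that the test did not use. Their GC content had a median of 60.9% over the canonical transcript, against 48.8% for all 14322 tested protein-coding genes and 44.2% for the 21 higher ones. Of the 190, 154 (81.1%) had a GC content over 55%, against 31.6% of all. They had a median of 13 exons, against 9 in all and 6 in the higher genes. Their 3′UTRs had a median length of 656 bases, against 1310 in all and 2220 in the higher genes, and their gene bodies 15400 bases, against 33600 in all.

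A trend with GC content ran through the protein-coding genes that averaged 1 CPM or more. From the lowest to the highest decile of GC content, the median log2 fold change of the mean contrast went from 0.10 to -0.12. The highest decile had a median of -0.20, -0.16, -0.04 and -0.15 in the A1, A2, A12 and A123 lines. It held 60 of the lower genes (4.8% of its 1250 genes), and the lowest decile held 0. With the GC trend of each sample removed before the fit, an alternative added after seeing the data, 55 genes were higher and 189 lower in every line. The part of GC content in the remaining difference was not tested.

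**Figure D5:**
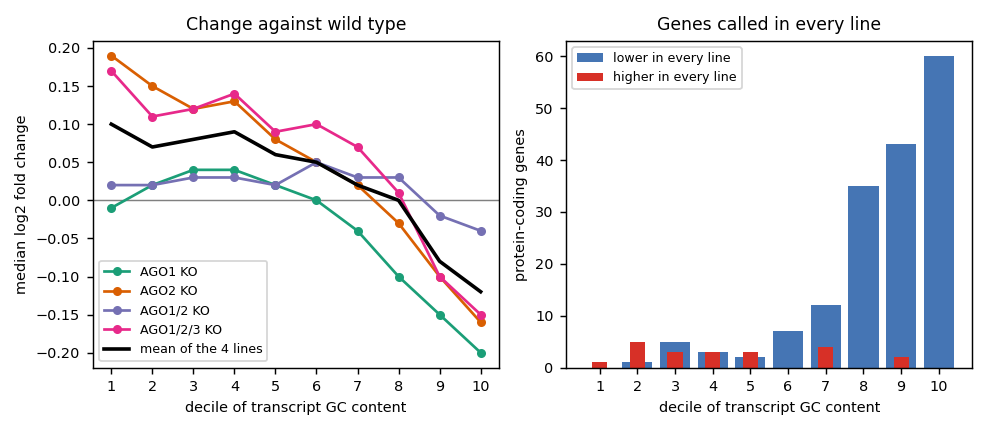
Left, median log2 fold change against wild type of protein-coding genes in each decile of transcript GC content, for the 4 lines and their mean. Right, number of protein-coding genes called lower (blue) or higher (red) in every line per decile, from 0 lower genes in the first decile to 60 in the last.

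Among genes of the RNA interference machinery, 13 were tested, with 4 higher (30.8%, against 9.06% of all autosomal genes) and 2 lower (15.4%, against 12.1%) in the mean contrast. *AGO1*, itself edited in the A1, A12 and A123 lines, was 1 of the 2 lower genes (-1.36). *AGO3*, edited in the A123 line, was also lower in the mean (-0.38, adjusted p = 0.00918), with -1.12 in A123 cells. The lower share is thus no result about unedited members. In every line 0 passed, against 1.46% of all autosomal genes, a share too small to expect a call among 13. *DICER1*, the enzyme that cuts microRNA precursors and is itself a let-7 target, came close. It was at 95.4, 104 and 106 CPM in wild-type, 115 to 137 CPM in A1, 157 to 204 CPM in A2, 163 to 169 CPM in A12 and 268 to 297 CPM in A123 samples. All 12 knockout samples were above the wild-type samples, and the mean log2 fold change was 0.83 (SE 0.09, adjusted p = 1.25e-05), with 0.33 in A1 cells. *AGO4*, not edited in any line, was at 21.9 to 28.5 CPM in wild-type and 10.8 to 69.4 CPM in knockout samples, with a mean of 0.13 that did not pass (adjusted p = 0.654). Of 22 tested let-7 targets, 9 were higher (40.9%, against 9.06%) and 1 lower (4.55%, against 12.1%) in the mean contrast, with a median log2 fold change of 0.31. Those of the lines were -0.08, 0.17, 0.19 and 0.80.

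The 272 windows of 10 Mb with at least 15 genes of at least 1 CPM had medians of the mean log2 fold change from -0.44 to 0.27. In 93 of them all 4 lines had a median of the same sign, and in 2 windows each line had one of at least 0.2 in size. The first of these lies at 190000001 to 200000000 of chromosome 1 (15 genes, 0.20 to 0.36). The other lies at the end of the long arm of chromosome 22 from 50000001 (26 genes, -0.53 to -0.26), and 3 of its genes were lower in every line. The windows of chromosome 8 from 70000001 on had medians of -0.69 to -0.47 in A12 and -0.78 to -0.4 in A123 cells. In A1 and A2 cells their medians were -0.16 to 0.19. In the last, from 140000001, 54 of 93 genes were lower in the mean and 7 in every line. Genes called in every line were found in 107 windows. The most in any 1 window were 11, among 168 genes on chromosome 6 from 30000001 to 40000000. On chromosome 16 from 10000001 to 20000000 they were 9 of 79.

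The knockout lines also differed from each other, in comparisons that use no wild-type sample. The A2 line differed from the A1 line in 4016 autosomal genes (18.4%), the A12 line from the A1 line in 4290 (19.6%) and from the A2 line in 5251 (24%). The A123 line differed from the A1 line in 8920 (40.8%), from the A2 line in 8832 (40.4%) and from the A12 line in 4817 (22%). The largest of the 4 changes lay in the A123 line for 20 of the 48 higher (41.7%) and 121 of the 272 lower genes (44.5%), close to the 44.3% of all tested genes, and in the A1 line for 19 (39.6%) and 44 (16.2%), against 15.9% of all. Among the 23 small RNA genes of the higher set, 17 were highest against wild type in the A1 line, whereas the protein-coding ones had medians of 0.51, 0.48, 0.52 and 0.99 on the log2 scale in the A1, A2, A12 and A123 lines.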

How the data were processed

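RNA of 3 cultures per line was sequenced from ribosome-depleted, stranded total RNA libraries as paired reads (NextSeq 500). Per the study's methods, reads were filtered, aligned to hg38 with STAR and quantified with Salmon. The submitters' processing notes name STAR 2.5.3a and Salmon 0.11.0, which differ from the versions in the methods. The deposited values are estimated counts per gene, one file per sample, with Ensembl identifiers (57875, of which 57167 matched GENCODE 44 on hg38).

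The estimated counts were rounded and fitted with edgeR 4.0.16 in R 4.3.3 (TMM, filterByExpr, quasi-likelihood, 1 mean per line, 15 samples). P-values were adjusted over all 22842 genes tested by Benjamini-Hochberg and called at 0.05. "Every line" means a call with one sign in all 4 contrasts. The difference among lines was an F-test on the 4 knockout means, which uses no wild-type sample. The biological coefficient of variation was 0.152. No 2 of the 15 files were identical. The methods call the replicates biological without saying how the cultures were separated, and p-values measure the spread between these samples only.

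Named genes were of several kinds. The first had a symbol, a mean of at least 1 CPM, calls in the mean and in every line and groups that do not overlap. Of these, the 12 protein-coding and the 4 other genes of each direction with the largest mean log2 fold change were named. So were 6 protein-coding genes of each direction whose 4 changes lay within 0.5. Up to 4 genes per list needed only a call in the mean, and *AGO1* to *AGO4* and *DICER1* were named whatever their values. The members and the 27 gene lists were chosen with earlier results of these data known. Standard errors are of the log2 fold change. Precision is limited by 3 samples per group. On data simulated from these means and library sizes for 22842 genes, 200 genes were changed 2- or 4-fold, equally in all 4 lines. The mean contrast recovered 167 of the 200, with 15 other calls apart from genes changed in the A2 line alone. The call in every line recovered 128 of 200 with 0 others. Of the 100 genes changed 2-fold, they recovered 71 and 44. Smaller changes, and changes shared at unequal sizes, were not simulated. The unchanged genes had the same mean in every line and in wild-type cells. The counts of other calls therefore do not cover differences between lines or a deviation shared by the wild-type samples. Alternatives were other normalizations, DESeq2 1.42.0, other filters, a 2-fold threshold, the replicate block, each sample or line left out, and lines as the unit. Results for some genes are not reported here.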

Additional observations from a re-analysis of the deposited data

Results flagged for a closer look

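Of the named genes, 26 are given here that were singled out because their change against wild type differed among the 4 knockout lines, by the F-test of edgeR on the knockout means with an adjusted p of at most 0.05. The value given for each is the span between its smallest and largest log2 fold change in the lines. For the higher protein-coding genes it was 2.27 for *HOXA3*, 1.51 for *HMGA2*, 1.04 for *TIPARP*, 0.8 for *BMAL2*, 0.55 for *HOXA7*, 0.56 for *GPR158*, 0.43 for *VPS18* and 0.4 for *PIGC*, each with the largest change in the A123 line, and 1.09 for *PALLD*, with the largest in the A2 line. For small RNA genes it was 1.85 for *RNU12*, 1.0 for *SNORA53*, 2.07 for *SNORD22* and 1.03 for *RNU2-2P*.

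For the lower genes it was 4.57 for *VGF*, 3.86 for *LINC01405*, 3.67 for *BICDL2*, 3.61 for *PELI2*, 3.08 for *GFY*, 2.37 for *ATP2C2* and 2.01 for *MAPK15*, with the largest change in the A123 line, and 2.64 for *SATB1*, with the largest in the A1 line. Of the genes of the knockout targets and their family it was 2.3 for *AGO1*, 1.12 for *AGO3* and 0.91 for *AGO2*, and *AGO2* RNA was at 262 to 365 CPM in the A2 and A12 lines. It was 1.99 for *AGO4* and 1.13 for *DICER1*, neither of which was edited. The direction was the same in all 4 lines for each of these genes except *AGO1*, *AGO2* and *AGO4*, and that of *AGO3* was -0.00 in the A12 line.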

How the results depend on the processing

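The counts below are of genes higher and lower in the mean (1981 and 2648), higher and lower in every line (48 and 272) and differing among the lines (11271). With total counts only they were 1072, 4053, 28 and 424, so that 20.9% in place of 42.8% of the calls in the mean were higher, and all tested genes had a median of -0.11 in place of -0.00 on the log2 scale. With a 2-fold threshold they were 248, 797, 15 and 93 (23.7% higher). Without the A1 line 272 and 631 genes passed in every line left, without the A2 line 136 were higher there, and without the A123 line 409 and 1417 passed in the mean (22.4% higher) and 6312 differed among lines. With the 12 knockout samples as one group 48 and 398 passed (10.8% higher). With 1 summed library per line, and so 1 wild-type library, no call was left. Without small RNA genes 26 were higher in every line. Those genes cannot be called there.

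Leaving out 1 sample gave 1086 to 2194, 1934 to 2923, 27 to 54, 155 to 360 and 9738 to 12517. Counts moved by over 1.5 times without wild-type replicate 1 (1209 higher in the mean) or 2 (1086 higher in the mean, 30 and 169 in every line), A1 replicate 1 (164 lower in every line) or 2 (29 and 155), A2 replicate 2 (27 higher) or 3 (31 higher) and A123 replicate 2 (31 higher). The replicate block gave 1808 higher in the mean, 2456 lower in the mean, 41 higher in every line, 236 lower in every line and 10838 differing among the lines. Deviations of same-numbered samples had a mean correlation of -0.00669 over 30 pairs, so the numbers do not pair the samples. DESeq2 gave 2138, 2600, 62, 298 and 11378.

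Of 1260 comparisons for 41 named genes (those with the largest mean change and those with even changes), 1196 kept direction and call, 64 lost the call and 0 turned. Of these, 41 fell under 1 summed library per line. The 41 genes were chosen by their calls in these same data, so the share that held is partly set by that choice. Of 4011 comparisons for all 130 named genes, 3454 kept direction and call, 550 lost the call and 5 turned. The reversals were *AGO4* (-0.26), *MIR200CHG* (0.21) and *IL17RD* (-0.03) without the A123 line, and *SPATA18* (-3.84, 0.41 with 12 samples as one group and 0.45 with 1 summed library per line), whose fitted value depends on the prior count. The cause was not tested. Depth limits genes with few counts, such as *LCN2*.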

Other observations

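Of the 27 gene lists, 5 held a gene called in every line (10 genes in all) and 22 held none. Several of the latter still moved in the mean of the 4 lines, with the change carried by some lines. For the enzymes of cholesterol synthesis, 11 of 21 were higher in the mean (52.4%, against 9.06% of all autosomal genes) and 0 lower (against 12.1% of all), with median log2 fold changes of -0.05, 0.43, 0.74 and 1.5 in the A1, A2, A12 and A123 lines. Of 25 interferon-stimulated and RNA-sensing genes, 8 were higher (32%, against 9.06%) and 0 lower, with a median of 1.48 in A12 and 0.55 in A123 cells and of -0.05 and 0.03 in A1 and A2 cells. Of 13 WNT targets, 7 were higher (53.8%, against 9.06%) and 0 lower, among them *AXIN2*, a feedback inhibitor of the pathway, with a log2 fold change of 1.36 in the mean and -0.00 in A1 cells.

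Of 20 genes of a list of ATF4 and endoplasmic reticulum stress, 11 were lower (55%, against 12.1% of all autosomal genes) and 0 higher, with a median of -1.0. The wild-type samples themselves spread widely in these genes: *ASNS*, asparagine synthetase, was at 74.5 to 479 CPM in wild-type and 20.9 to 437 CPM in knockout samples. Of 27 epithelial genes, 16 were lower (59.3%, against 12.1%) and 1 higher (3.7%, against 9.06%) in the mean, with 12, 16 and 17 lower in the A1, A12 and A123 lines, but 1 lower and 3 higher in the A2 line (median -0.05). *S100A14* was at 64.8 to 145 CPM in wild-type and 0.305 to 54.5 CPM in knockout samples. *KLF5*, a factor of intestinal crypts, was 0.61 lower in the mean, by 0.50 to 0.66 in the lines, and missed the call in the A1 line (adjusted p = 0.0936).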
